A study of Mus musculus with 6 samples.

Results

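The DEAD and DEAH box RNA helicases of mouse liver were compared between mice given LPS with GalN and mice given LPS alone. Members were the genes whose description on the array reads DEAD (Asp-Glu-Ala-Asp) box polypeptide or DEAH (Asp-Glu-Ala-His) box polypeptide. The rule found 65 of 44170 target rows, which belong to 43 genes, 30 of the DEAD box and 13 of the DEAH box family, among 37215 features in all. A target row is the summary of the few probes that the array carries for a transcript, and a feature is a gene name or, where there is no name, a single row. Of several rows of a gene under this description, the one with the highest mean over all arrays stands for the gene. All 3 arrays of the LPS group and all 3 of the LPS/GalN group came from liver of wild-type C57 BL/6 males of 9 to 10 weeks, each from a separate treatment. The dose of LPS, a bacterial cell wall component that activates innate immune cells, was 0.01 µg, and GalN, known as the hepatocyte toxin galactosamine, was given at 20 mg together with LPS; treatment lasted 2.5 hours in both groups. Both groups received LPS, so the comparison concerns GalN on top of LPS. Untreated mice and mice given GalN alone were not analysed here.

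DEAD and DEAH box proteins are ATPases that bind RNA, unwind short duplexes and strip proteins from RNA, and they are named after the letters of a conserved motif in the ATPase core. DEAH box members of the spliceosome drive its remodelling steps in a fixed order, many DEAD box members work in the nucleolus on ribosome precursors, and others act in mRNA export, translation and decay. In liver, as in other tissues, most are regarded as housekeeping factors, while a few relatives outside the named set sense viral RNA and are induced by interferon.

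No helicase gene of the 43 passed an adjusted p of 0.05 in the comparison of LPS/GalN with LPS (limma with Benjamini-Hochberg adjustment over all features). In the same fit 3.6% of all features passed, 0.602% higher and 3.0% lower in LPS/GalN. At an unadjusted p of 0.05, 7 helicases passed, 1 higher (Ddx46) and 6 lower (Ddx24, Ddx59, Dhx8, Dhx38, Ddx52 and Ddx28). That is 16.3% of the helicases, against 17.5% of all features, of which 8.46% were higher and 9.03% lower. The 3 LPS/GalN arrays lay wholly above the 3 LPS arrays in 5 helicases and wholly below in 7, together 27.9% of the genes, against 23.9% of all features (12.9% above and 11.0% below). By direction the shares at an unadjusted p of 0.05 were 2.33% higher and 13.95% lower among the helicases. The totals at the unadjusted p and of groups apart were near the background of the array, with fewer helicases higher and more lower at the unadjusted p than among all features, on counts of 1 and 6 genes.

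The median log2 difference, LPS/GalN minus LPS, was -0.02 over the helicases and 0.05 over all features. The quartiles were -0.32 and 0.23 for the helicases and -0.27 and 0.34 for all features. The 43 differences ran from -1.002 to 0.678, while those of all features ran from -5.98 to 4.10. A difference of 2-fold or more was measured in 1 helicase, Ddx52 (2.33% of the 43), and in 9.17% of all features. The sign was positive in 21 helicases and negative in 22. DEAD box genes had a median of -0.03 and DEAH box genes a median of 0.22, each between the quartiles of all features.

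Missing the threshold does not show that the helicases were equal in both groups. The 95% interval of the difference lay inside 1 log2 unit either way, a doubling or a loss of 50%, in 26 of the 43 genes, against 48.8% of all features. In 0 of 43 did it lie inside 0.5 log2 units. The intervals reached between 0.469 and 0.999 to either side of the estimate, and 36 of the 43 held 0. Over all features the smallest difference that passed the threshold measured 0.93 and the median one 1.79, and Ddx52 and Dhx8 were the 2 helicases with an estimate beyond that smallest size.

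**Figure D1:**
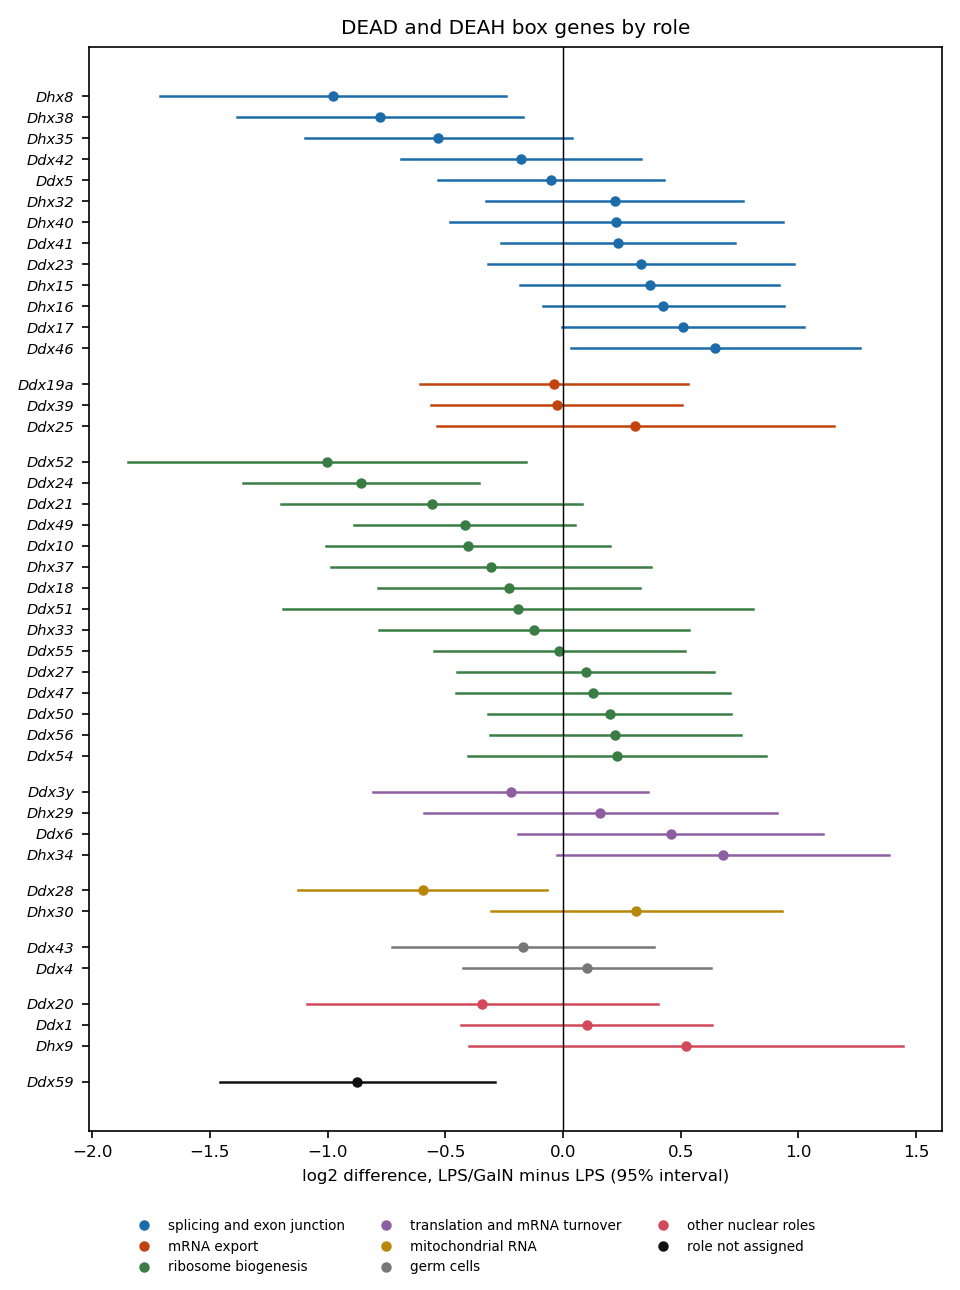
The log2 difference of each of the 43 DEAD and DEAH box genes, LPS/GalN minus LPS, with its 95% interval from limma, grouped and coloured by role. The estimates run from -1.002 to 0.678 and 36 of the 43 intervals hold 0.

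The helicases were well measured on these arrays. Of the 43, 38 (88.4%) lay above the background of the array on all 6 arrays, against 54.1% of all features. Background here is a row that summarises random probes, with a log2 intensity of 4.97 to 5.12. The exceptions were Ddx4, Ddx43, Ddx25, Ddx10 and Ddx51, whose row was at or below background on at least 1 array. Ddx10 has a brighter row under another spelling, above background on all 6 arrays, so the exception is that of its used row and not of the gene. The spread between arrays of a group was a pooled SD of 0.27 log2 units at the median helicase and 0.36 at the median feature. It ranged from 0.07 to 0.67 over the helicases, so some had a far less certain mean than others.

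Levels on the whole array were even after RMA, the normalization of the deposited values, which aligns the arrays. Markers of other tissues stood out in several animals. Median intensity was 60.4 to 63.1 per array, and log2 values correlated with a Pearson coefficient of 0.952 to 0.970 between arrays of a group and 0.917 to 0.948 between arrays of different groups. The liver label was borne out by hepatocyte markers, all 11 of them measured, with a summed intensity of 403950 to 436510 in LPS and 375660 to 400230 in LPS/GalN. Markers of thymus and T cells (10 of 14 measured) summed to 1882 to 2130 in LPS and to 2059.9, 16774 and 10160 in LPS/GalN replicates 1, 2 and 3, and cell cycle genes (10 of 10) to 3495 to 4030 and to 4777, 13329 and 11050. Intestine markers (12 of 13) summed to 33018 and 36544 in LPS replicates 1 and 2, and to 1924 to 2447 on the other arrays. Markers of endothelium and Kupffer cells (10 of 11) summed to more in LPS/GalN, at 12958 to 15942 against 6192 to 9850. Of these, 3 passed the threshold, the endothelial genes Pecam1, Egfl7 and Tie1. Endothelial Kdr and the Kupffer genes Clec4f, Cd5l, Vsig4, Marco, Adgre1 and Timd4 had positive differences that missed it. Neutrophil markers (6 of 7) summed to less, at 1143 to 1820 against 2747 to 4023. Only S100a8 and S100a9 passed, while Mpo (-0.07), Elane (0.10), Camp (-0.75) and Retnlg (-0.65) did not. Markers of B cells, pancreas and germ cells summed to at most 428 on any array. The part of these cells in the helicase values was not tested, but for the helicases with the largest or least certain differences the values without the arrays that stood apart are given below. Without LPS replicates 1 and 2, 7 of the 43 differences had the other sign, and without LPS/GalN replicates 2 and 3, 6 had. In whole tissue, fewer cells of a type and less RNA per cell cannot be told apart.

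Among the 13 helicases of splicing and the exon junction, 8 had a positive and 5 a negative difference, with a median of 0.23. By their used rows, the 2 most negative were Dhx38 and Dhx8, both DEAH box ATPases of the late spliceosome. A brighter row of Dhx38, spelled otherwise, had 0.03 ± 0.28. Dhx38, which remodels the spliceosome between its catalytic steps (chr8:112071910-112089501, mm9), had log2 intensities of 8.70, 9.41 and 9.11 in LPS and 8.08, 8.28 and 8.53 in LPS/GalN. All LPS/GalN arrays lay below all LPS arrays, and the difference was -0.78 ± 0.26 (SE), with a limma adjusted p of 0.178 (-0.81 and -0.996 without the LPS and the LPS/GalN pair of arrays with such markers). Dhx8, which releases the spliced mRNA (chr11:101594285-101628600, mm9), read 7.18, 7.58 and 6.76 in LPS and 5.84, 6.71 and 6.04 in LPS/GalN. The groups were apart by a narrow margin, between LPS replicate 3 and LPS/GalN replicate 2, and the difference of -0.98 ± 0.32 had a limma adjusted p of 0.162. Leaving out LPS replicates 1 and 2, which carried the intestine markers, gave -0.57, and leaving out LPS/GalN replicates 2 and 3 gave -1.33. Dhx35, a component of the catalytic spliceosome, was also lower on every LPS/GalN array in its used row, with a difference of -0.53 ± 0.25, but a brighter row of the gene spelled otherwise had 0.71 ± 0.29.

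Most other splicing helicases had a positive difference. Ddx46, which helps the U2 particle to settle on the branch point (chr13:55736411-55780476, mm9), had log2 intensities of 9.71, 9.67 and 9.90 in LPS and 9.94, 10.54 and 10.73 in LPS/GalN. LPS/GalN replicate 1 lay just above the LPS arrays and the other two LPS/GalN arrays well above them. The difference was 0.65 ± 0.27 with a limma adjusted p of 0.262. It was 0.18 without LPS/GalN replicates 2 and 3, which carried the thymus markers, and 0.51 without LPS replicates 1 and 2. Dhx16, which activates the assembled spliceosome, had a difference of 0.42 ± 0.22 with groups apart. Without the same LPS/GalN arrays it was 0.18, and without the same LPS arrays 0.31. Dhx15, which takes apart the spent spliceosome, read 9.54, 9.72 and 9.50 in LPS and 9.77, 9.80 and 10.30 in LPS/GalN. Its groups did not overlap, and the difference of 0.37 ± 0.24 missed the threshold (limma adjusted p = 0.485). It came to 0.18 without LPS/GalN replicates 2 and 3 and to 0.45 without LPS replicates 1 and 2. Ddx23, which exchanges U1 for U6 at the 5′ splice site, differed by 0.33 ± 0.28, and its row carries a warning of a chimeric clone in its description. Ddx41, a splicing factor also described as a sensor of DNA, read 9.33, 9.19 and 9.51 against 9.57, 9.45 and 9.70, overlapping groups that differed by 0.23 ± 0.22 (limma adjusted p = 0.645). The other 3 genes with a splicing role, Dhx32, Dhx40 and Ddx42, differed by -0.18 to 0.23.

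Ddx5 and Ddx17 are close paralogs that bind transcription factors and splicing complexes. Ddx17 (chr15:79358166-79377171, mm9) read 10.84, 10.77 and 10.52 in LPS and 11.02, 11.26 and 11.37 in LPS/GalN on the log2 scale. The groups did not overlap, and the difference was 0.51 ± 0.22 with a limma adjusted p of 0.290. It was 0.31 without LPS/GalN replicates 2 and 3 and 0.70 without LPS replicates 1 and 2. Ddx5 (chr11:106641668-106649793, mm9) read 10.68, 10.56 and 10.62 against 10.46, 10.52 and 10.71 in its brightest row. There the groups lay over each other, with a difference of -0.05 ± 0.21 and a limma adjusted p of 0.933. Another row of Ddx5, of nearly the same intensity, had -0.78 ± 0.25. Taken as a log2 ratio of Ddx5 to Ddx17 by their brightest rows, the shift from LPS to LPS/GalN was -0.56. Every LPS/GalN array lay below every LPS array in this ratio. An exact two-sided permutation test gave p = 0.1, the smallest that 3 against 3 arrays allow. This pair, and the pair of Ddx21 and Ddx50 below, were chosen after the values had been seen.

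**Figure D2:**
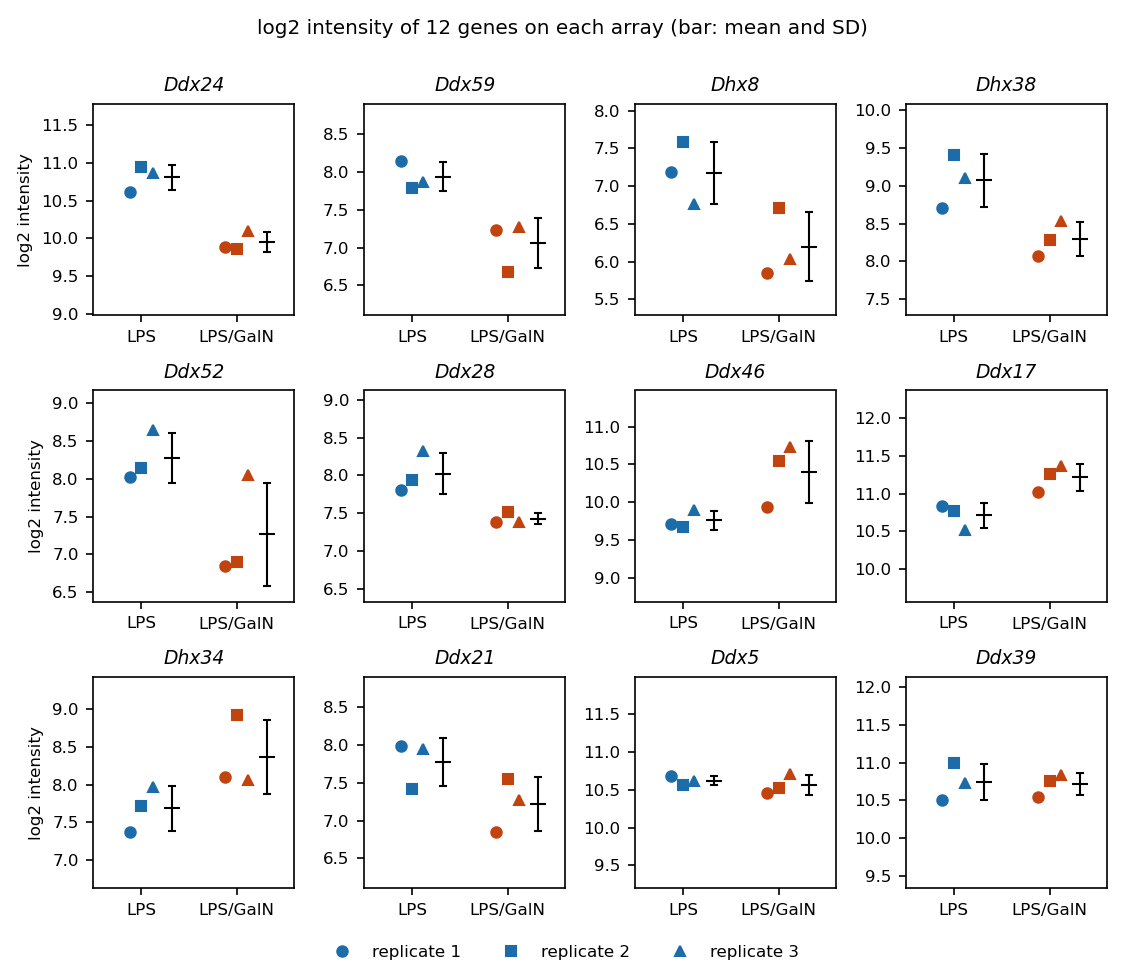
log2 intensity of 12 helicase genes on each array, blue for LPS and orange for LPS/GalN, with the replicate number as marker shape and the group mean and SD (n = 3) as a bar beside the points; every panel spans the same number of log2 units. Ddx24 and Ddx59 show the clearest gap between the groups, while the groups of Ddx39 and of the brightest row of Ddx5 lie over each other.

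Ribosome biogenesis is the largest role group, with 15 genes, and more of them had negative than positive values. Its median difference was -0.19, with 10 genes negative and 5 positive, where 45.1% of all features were negative, and 2 (Ddx24 and Ddx49) were lower on every LPS/GalN array, 13.3% of the role against 11.0% of all features, while 0 were higher on every one. Ddx24, a nucleolar helicase of the large ribosomal subunit (chr12:104646190-104664007, mm9), had the smallest p of the 43 genes by their used rows. With rows not joined, a row of Ddx10 spelled otherwise had a limma adjusted p of 0.0771, against 0.0803 for the used row of Ddx24. Ddx24 read 10.62, 10.94 and 10.86 in LPS and 9.88, 9.86 and 10.10 in LPS/GalN on the log2 scale. The gap between the groups was wider than the spread within either, and the difference was -0.86 ± 0.22 (95% interval -1.36 to -0.36), with a limma adjusted p of 0.0821. It was -0.92 without LPS replicates 1 and 2 and also -0.92 without LPS/GalN replicates 2 and 3. Ddx24 passed the threshold in some alternative fits. Its adjusted p ran from 0.00428 to 0.323 over the alternatives, and to 0.518 in a fit with a single LPS array, in which 0 of all features passed.

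Ddx52, which works on the small subunit precursor (chr11:83755679-83775692, mm9), had the largest difference of the 43 genes by their used rows. It read 8.02, 8.15 and 8.65 in LPS and 6.85, 6.91 and 8.06 in LPS/GalN. LPS/GalN replicate 3 lay inside the range of the LPS arrays, more than 1 log2 unit above the other two of its group. The difference of -1.002 ± 0.367, the only one of 2-fold or more among the used rows of the helicases, had a limma adjusted p of 0.208. It was -1.38 without LPS replicates 1 and 2 and -1.43 without LPS/GalN replicates 2 and 3, the latter leaving out the array that overlapped. Ddx49, also of the small subunit, had a smaller but tighter difference of -0.42 ± 0.20, with a limma adjusted p of 0.346. Ddx21, which links RNA polymerase activity with rRNA processing in the nucleolus, read 7.98, 7.41 and 7.94 in LPS and 6.85, 7.55 and 7.27 in LPS/GalN. LPS/GalN replicate 2 lay above LPS replicate 2, so the groups overlapped, and the difference was -0.56 ± 0.28 with a limma adjusted p of 0.355, or -0.72 and -0.93 without the same pairs of arrays. Its paralog and chromosomal neighbour Ddx50 differed by 0.20 ± 0.22. The log2 ratio of Ddx21 to Ddx50 shifted by -0.76 from LPS to LPS/GalN, with an exact two-sided permutation p of 0.2.

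The remaining 10 genes of this role differed by -0.40 to 0.23 in their used rows. The low end was Ddx10, of which a brighter row spelled otherwise had -0.92 ± 0.23. Ddx47 had 0.13 ± 0.25 in its used row but -0.47 ± 0.30 in its other row. Dhx37, which frees the U3 particle from the small subunit precursor, had -0.31 ± 0.30 in its used row but 0.50 ± 0.35 in its other row. Ddx18 had -0.23 ± 0.24. Ddx56 and Ddx54, both of the large subunit, had 0.22 ± 0.23 and 0.23 ± 0.27. Ddx51, another factor of the large subunit, had the widest error of any helicase, -0.19 ± 0.43, and was above background on 2 of 3 LPS arrays and on all 3 LPS/GalN arrays. Without LPS replicates 1 and 2 its difference was 0.86, of the other sign.

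The 3 helicases of mRNA export gave no difference outside their error. Ddx39, which loads export factors on mRNA, read 10.51, 10.99 and 10.73 in LPS and 10.55, 10.76 and 10.84 in LPS/GalN. The groups shared the same range, and the difference was -0.03 ± 0.23 (95% interval -0.56 to 0.51, limma adjusted p = 0.970), with a sign that turned under 3 alternatives. Ddx19a, which strips export factors at the nuclear pore, differed by -0.04 ± 0.25. Ddx25, a relative best known from the testis, differed by 0.31 ± 0.37 and was above background on 5 of 6 arrays.

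Translation and mRNA turnover had 4 members with a median of 0.31. Dhx34, which promotes nonsense-mediated decay (chr7:16782569-16807342, mm9), read 7.37, 7.72 and 7.97 in LPS and 8.11, 8.92 and 8.07 in LPS/GalN. It had the largest positive difference of the helicases by their used rows, 0.68 ± 0.31, with groups apart by little and a limma adjusted p of 0.303. Without LPS/GalN replicates 2 and 3 it was 0.42, and without LPS replicates 1 and 2 it was 0.40. Ddx6, which activates decapping and represses translation in P-bodies, read 7.71, 8.27 and 7.80 against 8.08, 8.26 and 8.81. Its groups overlapped and differed by 0.46 ± 0.28 (limma adjusted p = 0.462). The difference was 0.15 without LPS/GalN replicates 2 and 3 and 0.59 without LPS replicates 1 and 2. Ddx3y, the Y-linked copy of a factor that helps structured mRNAs into translation, read 8.32, 8.30 and 8.20 against 7.83, 7.84 and 8.49. LPS/GalN replicate 3 was the highest of all arrays and the other two of its group the lowest, and the difference was -0.22 ± 0.25 (limma adjusted p = 0.713). Dhx29, which helps ribosomes scan structured leaders, differed by 0.16 ± 0.33, but by -0.37 without LPS replicates 1 and 2 and by -0.29 without LPS/GalN replicates 2 and 3.

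The 2 helicases of mitochondrial RNA, both known from the assembly of the mitochondrial ribosome, differed in sign. Ddx28 (chr8:108533624-108535386, mm9) read 7.81, 7.94 and 8.32 in LPS and 7.38, 7.51 and 7.38 in LPS/GalN. Every LPS/GalN array lay below every LPS array, with a difference of -0.60 ± 0.23 and a limma adjusted p of 0.230, and the difference was -0.64 without LPS/GalN replicates 2 and 3 and -0.90 without LPS replicates 1 and 2. Dhx30 differed by 0.31 ± 0.27, and only LPS/GalN replicate 2 was far above the LPS arrays.

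Of the other nuclear helicases, Dhx9, RNA helicase A, read 7.06, 5.72 and 7.02 in LPS and 6.70, 7.45 and 7.204 in LPS/GalN. LPS replicate 2 alone lay far below the rest, and the difference was 0.52 ± 0.40 with a limma adjusted p of 0.561. Without that array it was 0.08, and without LPS replicates 1 and 2 it was 0.10. With LPS/GalN replicates 2 and 3 left out it was 0.11, so the value of the used row rests on few arrays. Another row of Dhx9 had 0.16 ± 0.27, and a dim one, above background on 3 of 6 arrays, had 1.04 ± 0.31. Ddx20, the gemin of the SMN complex that assembles spliceosomal particles, differed by -0.34 ± 0.32, or by -0.68 and -0.96 without the LPS and the LPS/GalN pair of arrays. Ddx1, a partner of the tRNA ligase, differed by 0.10 ± 0.23. Ddx59, which was given no role (chr1:138311930-138336735, mm9), read 8.15, 7.79 and 7.88 in LPS and 7.23, 6.68 and 7.28 in LPS/GalN. The groups were apart, and the difference of -0.88 ± 0.25 had a limma adjusted p of 0.122, the second smallest of the helicases by their used rows. It was -0.81 without LPS replicates 1 and 2 and -0.71 without LPS/GalN replicates 2 and 3.

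The germ cell helicases served as genes that liver should lack. Ddx4, the vasa helicase of the germ line, read 4.77, 4.76 and 4.66 in LPS and 4.70, 4.66 and 5.14 in LPS/GalN, at or below background on 5 of the 6 arrays. It was not above background on any LPS array, so the difference of 0.10 ± 0.23 (limma adjusted p = 0.866) says nothing of a change. Ddx43, whose row is described only as similar to that gene, was above background on 3 of 6 arrays and differed by -0.17 ± 0.24.

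Several rows of a gene offered a second reading from the same RNA. Of the 43 helicases, 18 had more than 1 row (40 rows), and in 12 of them all rows had the same sign. The other 6, Ddx23, Ddx3y, Ddx47, Dhx29, Dhx35 and Dhx37, had rows of both signs. The range over the rows of a gene was 0.37 log2 units at the median and 0.87 at the widest, in Dhx9. With no joining of rows, 0 of the 65 helicase rows passed the threshold. A further 12 rows carried the name of a helicase in another spelling and were left out of the rule, and 0 of them passed.

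The rows of Ddx24 all pointed down. The row that stands for the gene had -0.86, the other 2 had -0.83 and -1.21, and a row spelled otherwise had -0.50. Rows of Ddx17 (0.51 and 0.99) and Ddx46 (0.65 and 0.28) also shared their sign. Ddx5 was less settled: its brightest row had -0.05, but a row of nearly the same intensity had -0.78 ± 0.25 and one spelled otherwise -0.87 ± 0.26. The contrast of Ddx5 with Ddx17 was thus larger by the other rows, and the flat value of Ddx5 held for its brightest row only. The negative value of Dhx38 (-0.78) was not seen in a brighter row spelled otherwise (0.03), and Dhx35 (-0.53) had a dim row of 0.32 and a brighter row, spelled otherwise, of 0.71. A row spelled otherwise was brighter than the used row in 4 genes, Ddx10, Dhx32, Dhx35 and Dhx38, so for these the used row is not the brightest of the gene. For Ddx10, whose used row was near background at -0.40 ± 0.26, a brighter row spelled otherwise had -0.92 ± 0.23 with a limma adjusted p of 0.0771 among all rows. The files do not say which exons or transcript ends the rows read.

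**Figure D3:**
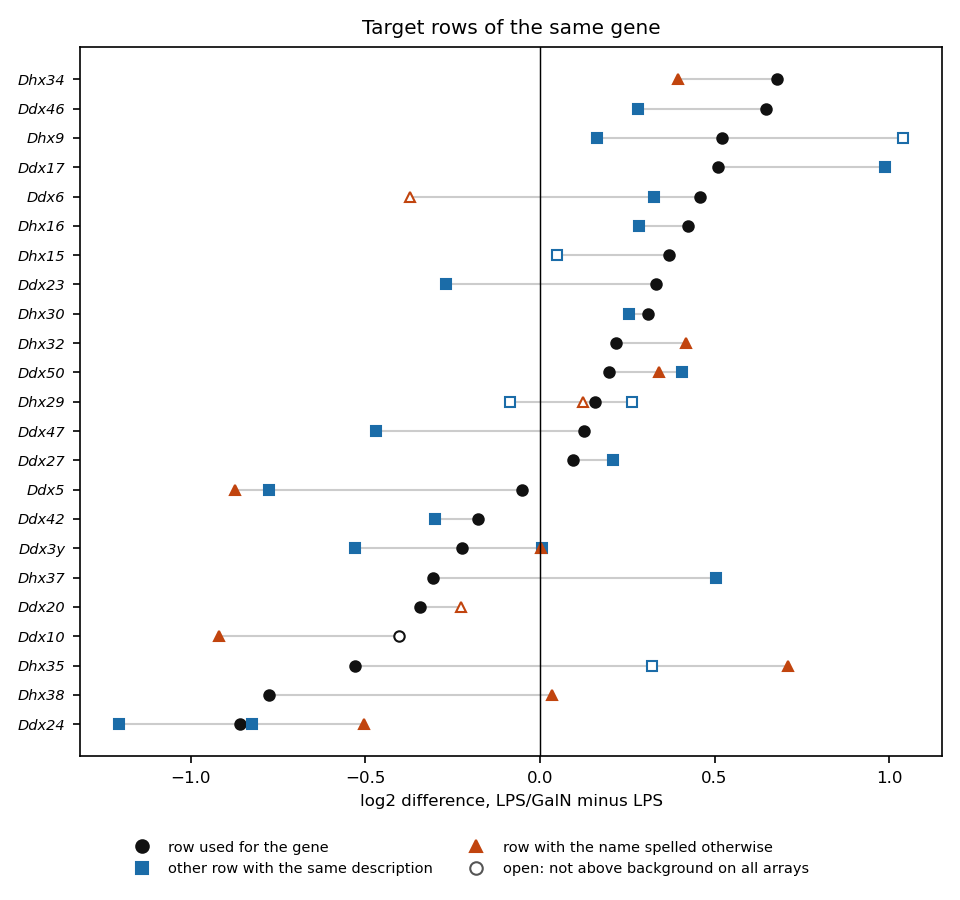
The log2 difference of every target row of the 23 helicase genes with more than 1 row, counting rows spelled otherwise, in order of the row that stands for the gene; open symbols were not above background on all arrays. The rows of Ddx24 all lie below 0, those of Ddx5 run from -0.87 to -0.05, and those of Dhx35 lie on both sides of 0.

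The helicases as a group moved between arrays, over a similar range in both groups. The median deviation of the 43 genes from their own mean was -0.08, -0.04 and 0.14 on LPS replicates 1 to 3 and -0.10, -0.05 and 0.11 on the LPS/GalN arrays. For all features the same median lay between -0.046 and 0.009 on every array. Above their own mean were 14 helicases on LPS/GalN replicate 1 and 30 on LPS replicate 3. LPS/GalN replicate 3 held the highest value of 14 helicases and LPS/GalN replicate 1 the lowest of 10. In both groups replicate 3 was the highest, so the ranges of the groups were nearly the same.

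The partners of these helicases gave a similar picture. Of a list of 39 cofactors, which hold MIF4G and G-patch proteins that switch on the ATPase and other partners, 32 were measured and 0 passed the threshold, against 3.6% of all features (limma). At an unadjusted p of 0.05, 2 did, 6.25% against 17.5% of all features, and the median was 0.02. The lowest p of the list belonged to Smn1, the core of the complex that also holds Ddx20. It read 8.46, 9.02 and 8.67 in LPS and 7.72, 7.89 and 7.66 in LPS/GalN, groups that did not overlap, with a difference of -0.95 ± 0.24 and a limma adjusted p of 0.0756. Gpatch4, a nucleolar G-patch protein, differed by -0.58 ± 0.21.

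RNA helicases without a DEAD or DEAH box name included some that passed the threshold. Of 22 listed, 16 were measured, 3 fell and 0 rose, with a median of 0.02. Of all features 3.0% fell and 0.602% rose. The 3 were Ifih1, the double-stranded RNA sensor, Mov10, which acts on viral RNA and retroelements, and Skiv2l, the helicase of the cytoplasmic exosome. Ifih1 read 10.49, 10.34 and 10.64 in LPS and 7.87, 8.003 and 8.81 in LPS/GalN, and its difference of -2.26 ± 0.29 (limma adjusted p = 0.00516) was larger than that of any of the 43 genes. Mov10 fell by 1.43 (limma adjusted p = 0.00752) and Skiv2l fell by 1.32 (limma adjusted p = 0.0245) on the log2 scale. The translation factors Eif4a1 and Eif4a2, DEAD box proteins by sequence that bear another name, differed by 0.00 ± 0.37 and 0.21 ± 0.22, and Eif4a3 of the exon junction complex by 0.08 ± 0.22. Upf1, the helicase of nonsense-mediated decay, differed by 0.59 ± 0.22 with groups apart (limma adjusted p = 0.223), the same sign as Dhx34.

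In the pathway of the RIG-I-like receptors, Ifih1 among them, 11 of 14 listed genes were measured and 8 fell, against 3.0% of all features. Their median was -2.15. Isg15, an interferon-induced ubiquitin-like modifier, fell by 3.36 on the log2 scale, and Irf7, a transcription factor of the interferon response, fell by 1.96 (limma adjusted p = 0.00125 and 0.00596). The others that fell were Rnf135, Ikbke, Zc3hav1, Trim25 and Tbk1. Irf3 and Traf3 had positive values of 0.22 ± 0.35 and 0.57 ± 0.34 that missed the threshold. Tank missed it too, with a negative value of -0.995 ± 0.35 and overlapping groups. The list is described by its counts and median, and the difference between it and the helicases was not tested.

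**Figure D4:**
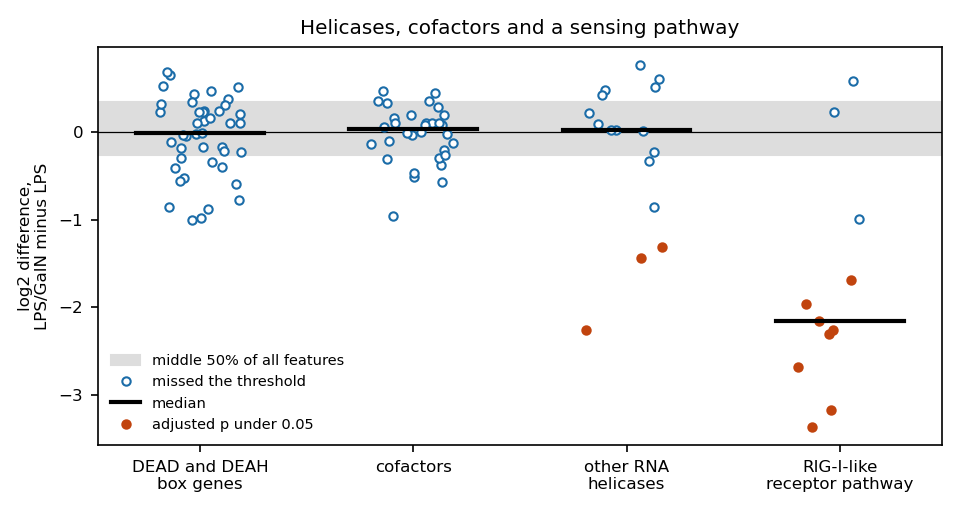
log2 differences, LPS/GalN minus LPS, of the 43 DEAD and DEAH box genes, 32 cofactors, 16 other RNA helicases and 11 genes of the RIG-I-like receptor pathway, 1 point a gene, filled where the limma adjusted p was under 0.05; thick lines are medians, the grey band lies between the quartiles of all features, and points are spread sideways only for legibility. Filled points are absent from the first 2 lists, and Ifih1 appears in both of the last.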

How the data were processed

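Liver RNA labelled with Cy3 was hybridised to 6 single-colour NimbleGen arrays, 3 a group; groups and replicate numbers come from the labels. The authors deposited RMA intensity per target row on a linear scale, as the file headers and the labels' tool list give it; the version of RMA is not given in the sources used here. RMA aligns the arrays, so a global change in RNA per cell is removed. The deposited value table of the series held the 18076 rows of at least 50 on all arrays and served as an alternative. Gene positions are mm9 as in the files. Rows were joined by gene name, keeping the highest mean.

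Intensities were turned into log2 and fitted with limma 3.58.1 in R 4.3.3 (lmFit and eBayes, group as the only term, two-sided, 4 residual and 4.04 prior degrees of freedom), tested on simulated data. P-values were adjusted over all 37215 features, with a threshold of 0.05. The number of arrays limits the precision. Named in full were any gene past the threshold and a fixed list of helicases, with up to 3 of the smallest p in each role as examples. Dhx16, Dhx35, Ddx23, Dhx32, Dhx40, Ddx42, Ddx50, Dhx37, Ddx18, Ddx56, Ddx54, Ddx51, Dhx29, Ddx10 and Ddx47 were named besides, after their values were seen. Members, lists and roles were chosen with earlier results of these data known. Of the fixed list, Dhx58, Ddx60, Ddx3x and Dhx36 had no row under the rule. A promoter description had been set for genes past the threshold and so applied to none.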

Additional observations from a re-analysis of the deposited data

How the results depend on the processing

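Of 19 alternatives, 14 left 0 helicases past the threshold; one of these, with a single LPS array (LPS replicates 1 and 2 left out), called 0 of all features and so says nothing of stability. With a single LPS/GalN array, 273 features passed. Leaving out any single array gave 0 helicases each time, with a median difference of -0.04 to 0.06. The count was 1, Ddx24, with a pseudocount of 16 (adjusted p = 0.0389), with a pseudocount of 64 (0.012), with only features above the median intensity (0.0308), and with a trended and robust limma fit (0.00428). Those fits called 4.71%, 5.80%, 10.3% and 6.88% of all their features. It was 2 with the deposited value table, which holds 38 of the genes: Ddx24 (0.0189) and Ddx59 (0.0423), in a fit that called 13.4% of all features. Over the alternatives the adjusted p of Ddx24 ran from 0.00428 to 0.323, or 0.518 with the single LPS array, and its difference from -0.96 to -0.79, negative in each. The cause of these changes was not tested.

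The median over the helicases was -0.144 without LPS replicates 1 and 2 together, -0.09 without LPS/GalN replicates 2 and 3, 0.03 after quantile scaling and -0.05 after centring. Of the helicases, 17 were followed singly through the alternatives. Among these, the sign turned after quantile scaling for Ddx5 (0.0114) and Ddx39 (0.0275). For Ddx4 it turned with LPS/GalN replicates 2 and 3 left out together (-0.0318). When single arrays were left out, Ddx39 ranged from -0.146 to 0.0968 and Ddx4 from -0.0535 to 0.190, both across 0. Genes outside these 17 also crossed 0 in this way, among them Ddx51 (-0.72 to 0.18), Dhx29 (-0.04 to 0.42) and Ddx1 (-0.02 to 0.22).

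A fit with the replicate number as a block (replicate block) called 0 helicases, with a median of -0.02. Over all features, same-numbered arrays did not deviate together (correlations of 0.002, -0.004 and 0.025), and the numbers are not read as pairs. The median deviations of the helicases alone had the same order of replicates in both groups, and their correlation was not tested. In the fit of the report, no feature with a difference under 0.93 log2 units passed, while some alternatives called smaller ones (Ddx24 at -0.82 with a pseudocount of 64).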
